A study of Saccharomyces cerevisiae with 45 samples.

Results

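The transcriptomes of germinating yeast spores treated with rapamycin or with DMSO for 120 min were compared. The comparison rests on 6 of the 45 RNA-Seq libraries of the study, which were taken by their labels: 3 of the rapamycin culture at 120 min and 3 of the DMSO culture at 120 min, with replicates lettered A, B and C. All of them came from strain SK1. A diploid had been sporulated, and its purified spores, the dormant haploid products of meiosis, were transferred into the rich medium YPD, which holds glucose. The treated cultures received 2000 nM rapamycin at the transfer and the control cultures DMSO, and samples were drawn from these cultures at several times. The study's strains all carry the markers ho::LYS2, ura3, leu2, trp1, his3 and lys2, homozygous in diploids unless stated. No mutant was compared with another strain here. Both groups shared the strain, the medium and the spore preparation step, and they differed in rapamycin or its solvent. The libraries hold poly-A RNA of a whole culture, in which spores of both mating types germinate side by side.

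Rapamycin binds the prolyl isomerase Fpr1, and the complex inhibits TORC1, the kinase complex that couples growth of the cell to its nutrients. In growing yeast, active TORC1 keeps up transcription of ribosomal protein genes and of the ribosome biogenesis (RiBi) genes, which encode the factors that make and assemble ribosomes. It also holds the GATA factors Gln3 and Gat1, the retrograde factors Rtg1 and Rtg3, the stress factors Msn2 and Msn4 and autophagy in check. A spore holds a store of transcripts from sporulation and turns on genes for growth once it is in rich medium. The comparison therefore asks how the levels of these genes differ with rapamycin while the spore returns to growth. At a single time, a slower return to growth and an effect on a given gene cannot be told apart.

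Total counts of the 6 libraries ranged from 8411310 to 12519434 with a median of 10333754. Between libraries of one culture the correlation of log levels was 0.991 to 0.995, and between the cultures it was 0.836 to 0.859. Levels are given as CPM, each gene's counts over those of its library, scaled by the trimmed mean of M-values (TMM), a method that assumes most genes do not change. Unless stated otherwise this scale was set within the 6 libraries. A gene was called where the adjusted p of edgeR's quasi-likelihood test was under 0.05 and the levels differed 2-fold or more, and "rose" and "fell" below refer only to genes that passed both. By this rule 36.9% of 5667 genes tested were called, 21.3% higher and 15.6% lower with rapamycin, and the median log2 fold change over all genes was 0.03. Counts of calls in the gene lists below stand against these shares, and a count near them is not particular to its list. The libraries of the 2 cultures did not overlap for 83.1% of all genes, so non-overlap is common here and is not particular to any gene named. The direction of weak changes depends on the scale. When libraries were scaled by their totals alone, the median of all genes moved to 0.539 on the log2 scale and 80.1% of the called genes were higher, against 57.8% with TMM. By totals 1900 of the 5667 genes were called higher and 472 lower. List counts given for that scale stand against these numbers, not against the TMM shares. In these libraries of whole cultures, fewer cells of a type and less RNA per cell cannot be told apart.

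The count of genes past larger changes was uneven between the directions. At any fold, 81.0% of genes had an adjusted p under 0.05. With rapamycin 475 genes (8.38%) were called at least 4-fold higher and 218 (3.85%) at least 4-fold lower, and from 16-fold on there were 35 (0.618%) and 7 (0.124%). Genes that rose took up 3.34% to 3.68% of all counts in the DMSO libraries and 21.4% to 22.1% in the rapamycin libraries, whereas those that fell took up 51.0% to 52.6% and 21.7% to 22.8%. ACT1, which encodes actin and is widely used as a reference, was at 1319, 1429 and 1423 CPM with DMSO and at 1080, 1014 and 1112 CPM with rapamycin. Its change of -0.38 ± 0.08 (log2, SE) did not reach 2-fold, and its sign turned when the totals alone set the scale (0.13, log2). All values given as of the scale of totals below come from that scaling.

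The labels describe spores held in nutrient medium, and transcripts that mark spores and meiosis were checked. On a scale set over all 45 libraries, the summed level of 13 spore markers was 11862 ± 1837 CPM (SD, n = 3) in purified spores, 228 ± 48.4 CPM with DMSO at 120 min and 526 ± 255 CPM with rapamycin at 120 min. Both cultures were far below the spores. Of the 13 markers 10 were tested at 120 min, and 3 were called higher with rapamycin and 2 lower. The shares over all genes tested were 21.3% and 15.6%. SPS100, a spore wall gene, was at 150, 89.8 and 128 CPM with DMSO and at 289, 284 and 661 CPM with rapamycin, so library C of the rapamycin culture stood above the others, and the markers SSP2 and SPS1 fell (log2 -1.54 ± 0.15 and -1.52 ± 0.18). Of 6 meiotic markers 3 rose, NDT80, DMC1 and HOP1, from means of 1.14, 0.525 and 0.986 CPM with DMSO. DMC1 and HOP1 were not called in a test against a 2-fold change. The part of such remaining sporulation transcripts in the results below was not tested.

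To show promoters of genes that moved in each direction, windows of 300 bases were read from the R64 reference genome, from 250 bases before the coding start to 50 bases from it. R64 is the genome of another laboratory strain, so an SK1 promoter may differ from the sequence printed. All are written 5′ to 3′ in the direction of the gene. These windows were chosen after the search for the elements, as examples that hold them, so they do not show how common an element is. The windows of PHO84 and HSP26, which were looked at first, held no copy of CACGTG and AGGGG respectively. The following 3 belong to genes that rose. In DAL3 (chrIX:415568-415867, minus strand), a gene of allantoin breakdown, and in GAT1 (chrVI:95716-96015, plus strand), which encodes a GATA factor, capitals mark GATAAG on either strand, the core bound by GATA factors, and overlapping copies run together. In TSL1 (chrXIII:70374-70673, plus strand), which encodes a subunit of trehalose synthase, capitals mark AGGGG, the stress response element bound by Msn2 and Msn4.
DAL3: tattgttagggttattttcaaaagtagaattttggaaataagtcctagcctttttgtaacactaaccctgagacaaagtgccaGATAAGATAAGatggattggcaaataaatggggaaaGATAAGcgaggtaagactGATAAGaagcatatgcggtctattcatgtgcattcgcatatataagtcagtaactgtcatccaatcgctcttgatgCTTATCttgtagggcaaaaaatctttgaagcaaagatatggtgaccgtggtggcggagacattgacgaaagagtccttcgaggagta
GAT1: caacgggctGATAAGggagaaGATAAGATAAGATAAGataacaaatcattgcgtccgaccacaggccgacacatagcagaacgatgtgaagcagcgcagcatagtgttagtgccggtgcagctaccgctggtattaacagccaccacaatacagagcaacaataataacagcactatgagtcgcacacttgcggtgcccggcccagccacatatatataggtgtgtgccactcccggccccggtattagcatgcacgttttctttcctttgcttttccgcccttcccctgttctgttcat
TSL1: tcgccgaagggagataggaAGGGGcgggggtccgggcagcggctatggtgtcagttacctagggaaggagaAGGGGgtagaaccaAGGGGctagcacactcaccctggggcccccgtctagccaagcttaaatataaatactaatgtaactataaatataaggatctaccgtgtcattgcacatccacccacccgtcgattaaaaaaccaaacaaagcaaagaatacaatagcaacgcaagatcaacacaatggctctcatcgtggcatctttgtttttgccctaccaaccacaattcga
The other 4 belong to genes that fell. In UTP14 (chrXIII:82840-83139, plus strand), a RiBi gene, and RPA43 (chrXV:960133-960432, minus strand), which encodes a subunit of RNA polymerase I, capitals mark GATGAG, the core of the PAC element, and AAAATTTT, the core of the RRPE, which are the paired elements of RiBi genes. In FUS1 (chrIII:71553-71852, plus strand), a gene of cell fusion in mating, they mark TGAAACA, the pheromone response element bound by Ste12. In SPL2 (chrVIII:375051-375350, minus strand), a regulator of phosphate uptake, they mark CACGTG, the E box that Pho4 and other factors bind.
UTP14: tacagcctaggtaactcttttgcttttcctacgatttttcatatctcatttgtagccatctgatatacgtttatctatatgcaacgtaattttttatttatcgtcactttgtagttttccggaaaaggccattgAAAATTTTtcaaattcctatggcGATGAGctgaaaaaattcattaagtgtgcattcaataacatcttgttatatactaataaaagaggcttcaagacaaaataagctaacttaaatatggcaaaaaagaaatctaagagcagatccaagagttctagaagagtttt
RPA43: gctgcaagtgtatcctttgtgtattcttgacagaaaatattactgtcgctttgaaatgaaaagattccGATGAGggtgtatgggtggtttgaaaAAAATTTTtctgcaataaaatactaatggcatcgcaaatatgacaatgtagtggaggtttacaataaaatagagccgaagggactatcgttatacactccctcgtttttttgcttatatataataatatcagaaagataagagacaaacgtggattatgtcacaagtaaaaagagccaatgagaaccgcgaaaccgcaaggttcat
FUS1: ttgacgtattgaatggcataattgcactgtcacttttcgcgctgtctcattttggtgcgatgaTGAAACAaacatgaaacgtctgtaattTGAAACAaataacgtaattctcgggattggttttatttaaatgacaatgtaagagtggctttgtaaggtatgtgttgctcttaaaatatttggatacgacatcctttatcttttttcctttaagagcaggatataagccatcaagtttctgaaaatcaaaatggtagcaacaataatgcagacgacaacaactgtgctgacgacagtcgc
SPL2: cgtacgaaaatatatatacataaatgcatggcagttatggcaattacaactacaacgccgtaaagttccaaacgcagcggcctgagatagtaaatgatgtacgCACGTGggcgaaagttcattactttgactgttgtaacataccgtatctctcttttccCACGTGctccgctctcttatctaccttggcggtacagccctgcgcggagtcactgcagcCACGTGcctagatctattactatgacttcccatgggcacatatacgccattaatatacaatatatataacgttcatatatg

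The same letters were counted on both strands of the windows of 5524 genes tested, of which 1180 rose and 852 fell. The GATA core was found in 20.3% of the promoters of genes that rose, in 14.5% of all and in 7.98% of those of genes that fell. The stress response element was in 39.1%, 21.7% and 12.8% in the same order. The reverse order was seen for the elements of RiBi genes. GATGAG was in 14% of the promoters of genes that rose and in 39.6% of those of genes that fell, and AAAATTTT in 2.97% and 33.7%, against 20% and 9.41% of all. Among the 144 RiBi genes, 89.6% of promoters held GATGAG, 75.7% AAAATTTT and 68.8% both, while both were in 4.67% of all promoters. The pheromone response element was in 51.2% of the promoters of 41 mating genes and in 7.22% of all, and 71.4% of the 7 genes that mark MATa cells had it. Its shares differed little between genes that rose (5.51%) and genes that fell (8.33%). GTCAC, the R box of the retrograde factors, was in 25.2%, 26.5% and 23.6% of promoters of genes that rose, of all and of genes that fell, so it did not separate the groups. These shares are descriptions, and a match is not evidence of binding.

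**Figure D1:**
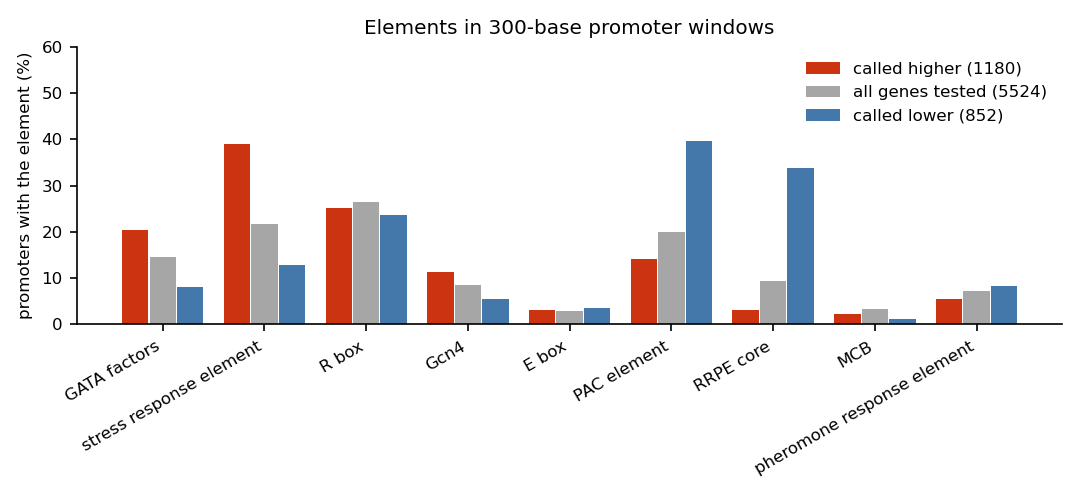
Share of 300-base promoter windows that hold each element on either strand (y axis, %), for genes called higher with rapamycin at 120 min (red), all genes tested (grey) and genes called lower (blue). The stress response element is found in 39.1% of the first and 12.8% of the last, and the RRPE core in 2.97% and 33.7%.

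Genes of nitrogen catabolite repression (NCR), whose products take up and break down poor nitrogen sources and which the GATA factors activate, rose by large factors. Of 33 genes tested 30 rose and 1 fell, with a median log2 fold change of 3.35. GAP1, the general amino acid permease, was at 58.5, 67.9 and 56.6 CPM in the DMSO libraries and at 2803, 3405 and 2979 CPM in the rapamycin libraries, a 50.3-fold difference (log2 5.65 ± 0.13, adjusted p = 6.15e-10). MEP2, a high-affinity ammonium transporter, was at 34.6, 38.4 and 31.1 CPM with DMSO and at 1276, 1795 and 1274 CPM with rapamycin, or 41.9-fold higher. The ranges were far apart in both genes. Of the other ammonium transporters, MEP1 was 10.4-fold and MEP3 6.83-fold higher, and DIP5, a permease for acidic amino acids, was 46.7-fold higher. The allantoin genes DAL4, a permease, and DAL5, a transporter of allantoate and dipeptides, rose 56.9-fold and 42.6-fold. DAL5 was at 20.6, 18.3 and 20.6 CPM with DMSO and at 768, 1033 and 743 CPM with rapamycin. DAL3, shown above, rose 42.1-fold from a mean of 2.02 CPM. Genes of the GATA factors themselves rose too: GAT1, an activator, 4.81-fold and DAL80, a repressor, 28.7-fold (from 6.19, 6.63 and 6.25 CPM to 163, 207 and 176 CPM). Not all members behaved alike. The arginine permease gene CAN1 was at 365, 421 and 424 CPM against 629, 720 and 659 CPM, an increase of 1.66-fold that did not reach the threshold, and GZF3, another GATA repressor, was 1.23-fold higher. OPT2, named after its value was seen as the only member that fell, encodes an oligopeptide transporter and had a log2 fold change of -1.17 ± 0.10. It was not called when totals set the scale.

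**Figure D2:**
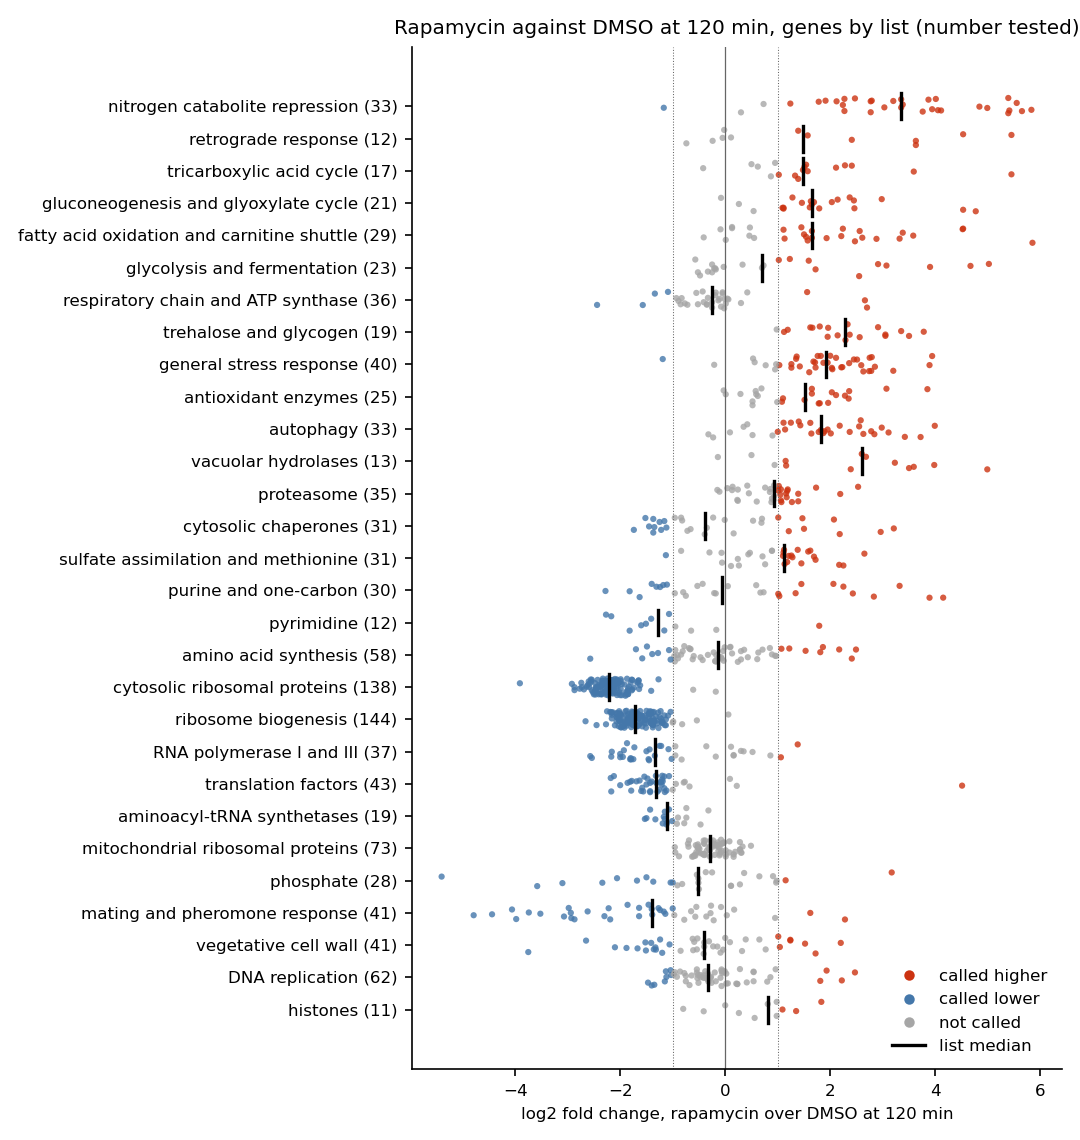
Log2 fold change of rapamycin over DMSO at 120 min (x axis) for each gene tested, in 29 lists (y axis, number tested in parentheses). Red points were called higher, blue called lower and grey not called; black bars are list medians and dotted lines mark 2-fold. Among the lists plotted, the NCR list has the highest median (3.35) and the cytosolic ribosomal proteins the lowest (-2.21).

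Nitrogen assimilation genes outside the permeases moved as well. GDH3, which encodes a glutamate dehydrogenase isozyme, had the largest rise of all genes at a mean of 10 CPM or more, from 15.5, 17.8 and 14 CPM to 1237, 1317 and 1163 CPM, or 79.1-fold (log2 6.31 ± 0.11). Its isozyme gene GDH1 rose 5.62-fold, from 708, 810 and 789 CPM to 4568, 4653 and 3743 CPM. ASN1, an asparagine synthetase gene, rose 5.32-fold, and CHA1, whose product breaks down serine and threonine, rose 45.5-fold. In the wider list of amino acid synthesis 8 of 58 genes rose and 8 fell, with a median of -0.14. When totals set the scale 15 rose and 3 fell, with a median of 0.37. LYS9 of lysine synthesis rose 4.49-fold and SER3 of serine synthesis fell 5.96-fold. A noncoding gene overlaps SER3 on the same strand, so its reads are uncertain. GCN4, which encodes the activator of the general amino acid control, was at 3436, 3786 and 3417 CPM with DMSO and at 3095, 3258 and 2961 CPM with rapamycin, a difference of -0.19 ± 0.10 on the log2 scale that did not pass (adjusted p = 0.0935) and that turned to 0.31 on the scale of totals.

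Genes of the retrograde pathway, which adjusts metabolism to the state of mitochondria and of glutamate supply, gave 7 rises and no fall among 12 tested (median 1.48). CIT2, the peroxisomal citrate synthase gene and classic target of the pathway, was at 137, 127 and 105 CPM with DMSO and at 3011, 3097 and 2449 CPM with rapamycin, or 23.2-fold higher (log2 4.53 ± 0.14). CIT1, the mitochondrial citrate synthase gene, rose 43.7-fold, from 16.7, 9.88 and 11.2 CPM to 623, 538 and 505 CPM. DLD3, a lactate dehydrogenase gene, and PYC1, a pyruvate carboxylase gene, each rose 12.4-fold. The regulator gene RTG2 was itself at 160 to 163 CPM and 168 to 183 CPM, a difference of 0.11 ± 0.06 (log2) that was not called. Of 17 tricarboxylic acid cycle genes 12 rose and none fell. ACO1, encoding aconitase, was 5.31-fold and SDH2, encoding a succinate dehydrogenase subunit, 4.87-fold higher. The respiratory chain did not follow the cycle. Of its 36 genes 3 rose and 4 fell, with a median of -0.25 that became 0.25 on the scale of totals. COX5B, the cytochrome oxidase subunit isoform of low oxygen, rose 6.50-fold, while CYC1, encoding cytochrome c, fell 5.41-fold, from 699, 815 and 730 CPM to 128, 170 and 116 CPM.

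Many genes that glucose is known to repress rose. In the list of gluconeogenesis and the glyoxylate cycle 18 of 21 genes rose and none fell (median 1.65), and in that of fatty acid oxidation and the carnitine shuttle 21 of 29 rose and none fell (median 1.65). The shuttle carries acetyl groups between compartments. CRC1, its mitochondrial carrier gene, rose 57.8-fold, from 8.65, 6.75 and 8.08 CPM to 476, 490 and 403 CPM, and the carnitine acetyltransferase genes CAT2 and YAT1 rose 23.1-fold and 23.0-fold. ATO2, which encodes a putative ammonium or acetate exporter, rose 27.4-fold, and MLS1, the malate synthase gene of the glyoxylate cycle, rose 7.88-fold. PCK1 and ADH2, also known as genes that glucose represses, were not called. PCK1, which encodes an enzyme particular to gluconeogenesis, was at 14.6, 12 and 16.6 CPM with DMSO and at 16.5, 13.4 and 22.7 CPM with rapamycin, and the ranges overlapped, as they did for ADH2 (log2 0.26 ± 0.20 and -0.08 ± 0.11, neither called). ADH2 lay at 0.43 (log2) on the scale of totals. Among 23 genes of glycolysis and fermentation 10 rose and none fell. TDH1, a glyceraldehyde-3-phosphate dehydrogenase gene, was 32.5-fold, PDC6, a pyruvate decarboxylase gene, 25.5-fold, HXK1, a hexokinase gene, 15.0-fold and PYK2, a pyruvate kinase gene, 8.38-fold higher. The major pyruvate kinase gene CDC19 was 1.39-fold lower and FBA1, encoding aldolase, 1.19-fold lower, and neither was called. On the scale of totals CDC19 and FBA1 lay at 0.03 and 0.26 (log2), so that both signs turned. HXT5, a hexose transporter gene of slow growth, rose 6.27-fold, and HXT2, a high-affinity transporter gene, fell 3.42-fold.

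Storage carbohydrate and stress genes rose together. Of 19 trehalose and glycogen genes 18 rose (median 2.29), and the one that was not called, TPS3, was at 1.97-fold. TPS1, the trehalose-6-phosphate synthase gene, was at 18.3, 10.3 and 10.8 CPM with DMSO and at 165, 132 and 153 CPM with rapamycin, or 11.3-fold higher. GLC3, the glycogen branching enzyme gene, rose 13.8-fold, and TSL1, whose promoter is shown above, 8.30-fold. In the list of the general stress response 33 of 40 genes rose and 1 fell (median 1.91). HSP26, a small heat shock protein gene, was at 6.78, 2.63 and 4.23 CPM against 67.7, 45.6 and 104 CPM, and NQM1, a transaldolase paralog gene, rose 14.9-fold. The abundant stress transcripts of the spore were low in both cultures by then. On the scale of all 45 libraries the list summed to 105532 ± 12020 CPM in spores, to 1958 ± 305 CPM with DMSO and to 5978 ± 1037 CPM with rapamycin at 120 min. Among 25 antioxidant genes 15 rose and none fell. The peroxiredoxin genes TSA2 and AHP1 rose 14.5-fold and 8.42-fold, and TSA1, the main cytosolic peroxiredoxin gene, was 1.5-fold higher and was not called.

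Cytosolic chaperone genes divided. Of 31 tested 8 rose and 10 fell, and the median of -0.39 became 0.12 on the scale of totals, where 11 rose and 2 fell. Those that rose included SSA1 (an Hsp70 gene, 7.77-fold), HSP82 (an Hsp90 gene, 4.54-fold), AHA1 (an Hsp90 cofactor gene, 4.20-fold) and SSE2 (an Hsp110 gene, 9.23-fold). For SSA1, 45.5% of stretches as long as a read recur at other places of the reference, so its reads may be shared with paralogs. Those that fell, named here after their values were seen, were the ribosome-bound Hsp70 genes SSB1 and SSB2 and their partners ZUO1 and SSZ1, the nascent chain factors EGD1 and EGD2 and 4 genes of the CCT chaperonin (CCT4, CCT5, CCT7 and TCP1).

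**Figure D3:**
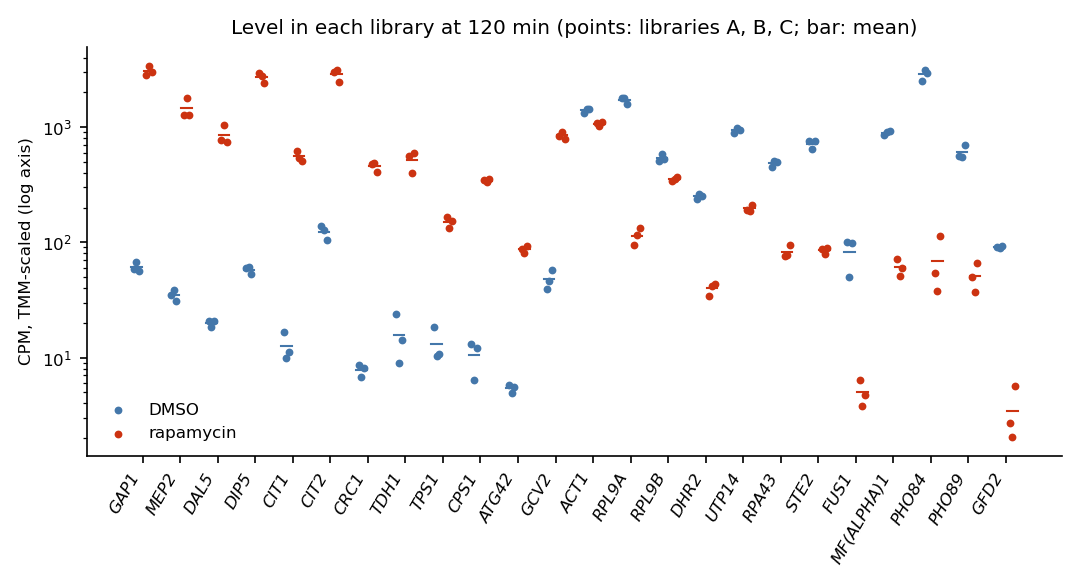
Level of 24 named genes in each library at 120 min (y axis, TMM-scaled CPM on a log axis), DMSO in blue and rapamycin in red, with points for libraries A, B and C and bars for means. The libraries of the cultures do not overlap in any of the 24 genes, ACT1 included, which spans 1319 to 1429 CPM with DMSO and 1014 to 1112 CPM with rapamycin.

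Autophagy genes rose in 26 of 33 cases with no fall (median 1.82), and genes of vacuolar hydrolases in 10 of 13 (median 2.60). Autophagy carries cytoplasm to the vacuole for breakdown, and TORC1 represses it. ATG42, a vacuolar carboxypeptidase gene, was at 5.80, 4.88 and 5.58 CPM with DMSO and at 87.9, 80.9 and 92.7 CPM with rapamycin, or 15.9-fold higher. ATG14, whose product directs the lipid kinase complex of autophagy, rose 10.7-fold, and ATG39, a receptor gene of nuclear autophagy, 8.62-fold. CPS1, a vacuolar carboxypeptidase gene that GATA factors also control and that the NCR list holds too, went from 13.1, 6.38 and 12.2 CPM to 346, 331 and 350 CPM, a 31.7-fold increase. The aminopeptidase gene APE1 rose 12.1-fold and the mannosidase gene AMS1 11.3-fold. ATG27, which encodes a membrane protein of vesicle transport, overlapped between the cultures (39.0, 46.9 and 43.4 CPM against 43.1, 42.1 and 52.2 CPM). The proteasome changed less per gene. Of its 35 genes 16 rose and none fell, 25 on the scale of totals, with a median of 0.93. PRE3, a catalytic subunit gene, was 4.55-fold and the regulatory subunit gene RPT1 1.89-fold higher, and the latter missed the threshold, as did RPN4, the gene of their activator (1.82-fold).

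Most genes of the translation machinery fell. Of 138 cytosolic ribosomal protein genes 136 fell and none rose (median -2.21), and 134 fell on the scale of totals. Their transcripts made up 18.4% to 20.5% of all counts with DMSO and 5.85% to 6.18% with rapamycin. RPL9A fell most, from 1777, 1797 and 1573 CPM to 94.1, 115 and 133 CPM, or 15.0-fold (log2 -3.91 ± 0.13). RPL12A fell 7.58-fold, from 1199, 1183 and 1163 CPM to 138, 156 and 173 CPM. The members that were not called were RPL9B and RPL15B. RPL9B encodes nearly the same protein as RPL9A, yet it was at 502, 583 and 529 CPM with DMSO and at 339, 350 and 370 CPM with rapamycin, 1.52-fold lower. Of stretches as long as a read in either gene, 2.10% recur elsewhere in the reference, so most of their reads can be assigned. RPL15B was at 86.6, 87.4 and 76.7 CPM against 73.9, 77.3 and 70.5 CPM, its libraries overlapped, and its sign turned on the scale of totals (0.33, log2). Whether the changes of RPL9A and RPL9B differed was not tested.

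RiBi genes fell in 139 of 144 cases and none rose (median -1.72), and 99 fell when totals set the scale. DHR2, an RNA helicase gene, was at 237, 263 and 252 CPM with DMSO and at 34.5, 41.5 and 43.1 CPM with rapamycin, or 6.32-fold lower. UTP14, whose promoter is shown above, was at 891, 971 and 932 CPM against 190, 188 and 211 CPM, 4.74-fold lower. DBP2, another helicase gene, fell 5.46-fold and UTP21 4.84-fold. KRI1 and SDA1, at 1.99-fold and 2.00-fold lower, stood at the threshold and were called when DESeq2 was used. Of 37 genes for RNA polymerases I and III and their factors 23 fell and 2 rose (median -1.34), with 14 falls and 4 rises on the scale of totals. RPA43 fell 5.83-fold, from 447, 507 and 495 CPM to 76.1, 78.0 and 94.8 CPM, and RPC17, a subunit gene of polymerase III, 5.93-fold. TFC4 and TFC8, which encode subunits of the assembly factor TFIIIC, rose (log2 1.38 ± 0.08 and 1.06 ± 0.12, named after their values were seen). Translation factor genes fell in 35 of 43 cases and rose in 1 (14 and 1 on the scale of totals). The exception was HEF3, the gene of an alternative elongation factor 3, which rose 22.7-fold, from 30.7, 22.5 and 30.3 CPM to 653, 556 and 702 CPM. TEF4, which encodes a subunit of elongation factor 1B, fell 4.52-fold (a snoRNA overlaps it on the same strand), and PAB1, the poly-A binding protein gene, was 1.73-fold lower and was not called. Aminoacyl-tRNA synthetase genes fell in 12 of 19 cases with a median of -1.11, but 1 only was called on the scale of totals.

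Of the mitochondrial ribosomal protein genes, none of 73 was called in either direction, the range of their log2 fold changes being -0.96 to 0.49, and their median of -0.29 became 0.22 on the scale of totals. DESeq2 called 0 as well. At an unadjusted p under 0.05 in edgeR, 43 were lower and 8 higher, so 51 of the 73 passed at that level without reaching 2-fold. With the adjusted p under 0.05 at any fold, 41 were lower and 8 higher, so most were left uncalled by the 2-fold cut. MRP20 was at 132, 152 and 135 CPM with DMSO and at 172, 186 and 168 CPM with rapamycin.

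In the list of purine synthesis and one-carbon metabolism 11 of 30 genes rose and 8 fell, with 14 rises and 3 falls on the scale of totals. Genes of the glycine cleavage system, which releases one-carbon units from glycine, rose: GCV2 from 39.4, 46.0 and 57.2 CPM to 831, 906 and 792 CPM (17.7-fold), GCV1 10.0-fold and GCV3 7.11-fold. ADE17 of purine synthesis rose 14.8-fold, and ADE6 was at 646 to 710 CPM against 634 to 761 CPM, which overlapped. Pyrimidine genes fell in 8 of 12 cases (5 on the scale of totals) and rose in 1. URA7, the CTP synthase gene, was 4.82-fold lower, at 721, 805 and 786 CPM against 144, 159 and 177 CPM, and URA1 4.49-fold lower. URA8, the gene of the other CTP synthase, overlapped between the cultures (206, 265 and 260 CPM against 197, 237 and 216 CPM), and its log2 difference of -0.17 turned to 0.34 on the scale of totals. The one that rose was URA10, a minor isozyme gene (3.46-fold).

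Genes of sulfate assimilation and methionine synthesis rose in 17 of 31 cases and fell in 1 (median 1.11). MET6, the methionine synthase gene, was at 67.8, 67.3 and 105 CPM with DMSO and at 484, 540 and 495 CPM with rapamycin, or 6.30-fold higher. MET3, encoding ATP sulfurylase, and SUL1, a sulfate permease gene, rose 4.77-fold and 4.49-fold. The list had passed its highest summed level in both cultures, which on the scale of all 45 libraries was 42958 ± 4108 CPM with DMSO and 28720 ± 6776 CPM with rapamycin at 60 min, against 8442 ± 1231 CPM and 9772 ± 906 CPM at 120 min. SAH1, encoding the enzyme that removes S-adenosylhomocysteine, was 1.79-fold lower, and CYS4 of cysteine synthesis overlapped between the cultures. Thiamine and vitamin B6 genes rose in 11 of 21 cases and fell in 2, and ergosterol genes fell in 6 of 26 and rose in 1 (2 and 1 on the scale of totals).

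Among genes at a mean of 10 CPM or more, the largest fall was that of a phosphate gene. PHO84, the high-affinity phosphate transporter gene, was at 2519, 3143 and 2913 CPM with DMSO and at 53.7, 37.9 and 114 CPM with rapamycin, or 42.1-fold lower (log2 -5.40 ± 0.36). PHO89, a sodium-coupled phosphate transporter gene, went from 560, 550 and 702 CPM to 50, 36.9 and 65.6 CPM, 11.9-fold lower. SPL2, whose promoter is shown above and holds CACGTG 3 times, fell 8.60-fold. Across the list 10 of 28 genes fell and 2 rose, with a median of -0.51, while on the scale of totals 6 fell and 6 rose with a median of -0.01. CACGTG was in 25.0% of the promoters of the list and in 2.93% of all. The phosphatase gene PHM8 rose 8.99-fold, and GPP2, a glycerol phosphatase gene, overlapped between the cultures. Of the iron and copper genes 4 of 31 rose and 3 fell, against 9 and 2 on the scale of totals. With TMM these were lower shares than over all genes tested, of which 21.3% rose and 15.6% fell. FET3, the ferroxidase gene, was at 61.5, 30.8 and 52.7 CPM against 4.56, 5.47 and 5.14 CPM, and FTR1, its permease partner gene, fell 2.83-fold, while SIT1, a siderophore transporter gene, rose 6.22-fold.

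Genes of mating fell. Of 41 tested 26 fell and 2 rose (median -1.39), against 18 and 3 on the scale of totals (median -0.88). Germinating haploids turn on the genes of their mating type, and both types are in the culture. All 7 genes that mark MATa cells fell and 3 of 4 that mark MATalpha cells (7 and 2 on the scale of totals). STE2, the receptor gene of MATa cells, was at 753, 644 and 757 CPM with DMSO and at 88.2, 79.2 and 88.5 CPM with rapamycin, or 8.42-fold lower (log2 -3.07 ± 0.09). AGA2, an agglutinin subunit gene of MATa cells, was at 218, 127 and 200 CPM against 15.1, 8.98 and 10.4 CPM, and BAR1, which encodes a protease against alpha factor, fell 13.4-fold. Library B of the DMSO culture was the lowest of its group in STE2, AGA2, BAR1 and FUS1, and still lay above every rapamycin library. MF(ALPHA)1, the main alpha factor gene, went from 856, 898 and 919 CPM to 72.0, 51.1 and 59.4 CPM (14.6-fold lower), and STE3, the receptor gene of MATalpha cells, fell 3.62-fold. FUS1, a target of the pheromone pathway with 2 copies of TGAAACA in the promoter shown above, averaged 82.9 ± 28.8 CPM with DMSO, with 49.8 CPM in library B, and 4.99 ± 1.32 CPM with rapamycin (SD, n = 3). Of the genes of the shared pathway, GPA1, the G protein alpha subunit gene, fell 3.12-fold and STE12, the transcription factor gene, 2.76-fold, while FUS3 and STE5, encoding its kinase and scaffold, were 1.97-fold and 1.20-fold lower and were not called. On the scale of totals STE12 was not called either and STE5 lay at 0.24 (log2).

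Cell wall and cell cycle genes were mixed. In the list of the vegetative cell wall 14 of 41 genes fell and 7 rose, with a median of -0.41 that became 0.09 on the scale of totals, where 7 fell and 9 rose. UTR2, which links chitin to glucan, was at 592, 613 and 669 CPM with DMSO and at 43.7, 42.6 and 53.1 CPM with rapamycin, or 13.5-fold lower, and the glucanase gene SCW10 fell 4.29-fold. SRL1, a mannoprotein gene, fell 28.7-fold, from 66.6, 47.5 and 63.1 CPM to 3.04, 1.25 and 1.91 CPM. ECM33, a wall protein gene, was 1.53-fold lower without being called. Of 20 genes of G1 and Start 4 fell and 1 rose, while 2 fell and 5 rose on the scale of totals. PCL2, a G1 cyclin gene, fell 7.10-fold and CLN3, the cyclin gene that starts the cycle, 2.33-fold, at 285, 286 and 337 CPM against 119, 122 and 149 CPM, and CLN3 was not called on the scale of totals. FAR1, the inhibitor gene of pheromone arrest, fell 3.12-fold. CLN2 was not tested, with at most 22 counts in any of the 6 libraries. Of 62 DNA replication genes 8 fell and 4 rose, and 10 rose and none fell on the scale of totals. The ribonucleotide reductase genes RNR2, RNR3 and RNR4 rose 4.65-fold, 5.53-fold and 3.51-fold, and the helicase subunit gene MCM3 was 1.45-fold lower without being called. Histone genes gave 3 rises among 11, with HTA2 3.56-fold and HHT2 2.55-fold higher, and 7 rises on the scale of totals. Of 34 genes of G2 and mitosis 2 rose and 1 fell, with 7 rises and 1 fall on the scale of totals. Over all genes tested 21.3% rose and 15.6% fell, which the TMM counts of these cell cycle lists did not clearly exceed. On the scale of totals 1900 of all 5667 genes rose and 472 fell, so rises were common there.

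The list of TORC1 components and effectors held 8 rises and no fall among 43 genes, while 21.3% of all genes tested rose and 15.6% fell. Its share of rises was thus not above that of all genes. On the scale of totals it held 23 rises, where 1900 of all 5667 genes rose. Besides DAL80 and GAT1 given above, ATG13, the autophagy regulator gene, was 3.53-fold and RRD2, the gene of a phosphatase activator, 3.42-fold higher. SFP1, which encodes an activator of ribosomal genes, was at 347, 361 and 378 CPM against 278, 282 and 280 CPM, a difference of -0.37 ± 0.06 (log2) that was not called and turned to 0.14 on the scale of totals. In the Ras and protein kinase A list 10 of 21 genes rose and 1, RAS1 (named after its value was seen), fell. The kinase subunit gene TPK2 rose 6.94-fold, and the Gpa2 partner gene GPB2 7.46-fold. Of 7 genes that the study had picked, in part on these libraries, as regulated by both TORC1 and glucose, 5 rose and 2 fell, which is therefore no independent evidence. GFD2 fell 27.3-fold, from 91.8, 88.9 and 92.9 CPM to 2.70, 2.03 and 5.64 CPM, and DHR2, CIT1 and CRC1 are given above. UGA1 of GABA breakdown rose 16.1-fold, RME1, the gene of a repressor of meiosis, 23.6-fold, from 13.7, 8.26 and 11.4 CPM to 269, 251 and 277 CPM, and GPG1, another Gpa2 partner gene, 26.2-fold.

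A change in the effect of rapamycin between 60 and 120 min was tested with the term for treatment and time over the 12 libraries of both times, which include the 6 described so far. Of 5745 genes, 12.7% were called, 8.58% with a more positive and 4.11% with a more negative effect at 120 min. The median difference over all genes was 0.02 (log2). The mating list held 22 of the negative calls and 1 of the positive among its 41 genes. On the scale of all 45 libraries STE2 was at 27.5 ± 2.88 CPM with DMSO and 23.9 ± 3.19 CPM with rapamycin at 60 min, so that the cultures overlapped then, and at 814 ± 69.6 CPM and 97.1 ± 5.79 CPM at 120 min. The largest negative differences among genes at a mean of 10 CPM or more were those of SRL1 (-5.20 ± 0.46), FUS1 (-3.96 ± 0.51), AGA2 (-3.92 ± 0.32) and BAR1 (-3.79 ± 0.35). At 60 min the means of these 4 genes in both cultures lay between 1.32 and 7.77 CPM. In the other direction stood TDH1 (4.25 ± 0.40), HEF3 (3.63 ± 0.27), CRC1 (3.62 ± 0.29) and PDC6 (3.46 ± 0.33). CRC1 was at 521 ± 52.1 CPM at 60 min and 520 ± 56.2 CPM at 120 min with rapamycin, while it went from 110 ± 33.7 CPM to 8.87 ± 1.04 CPM with DMSO. The level of CRC1 thus moved in the DMSO culture and hardly with rapamycin. TDH1 differed in both cultures, with 146 ± 47.5 CPM and then 589 ± 113 CPM with rapamycin and 84.8 ± 8.64 CPM and then 17.7 ± 8.25 CPM with DMSO.

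Of the 33 NCR genes 9 had a more positive and 3 a more negative effect at 120 min. GAP1 was not called (-0.14 ± 0.26, adjusted p = 0.689), and MEP3 had a smaller effect at 120 min (-1.87 ± 0.17), with 321 ± 32.7 CPM at 60 min and 176 ± 23.5 CPM at 120 min under rapamycin and 12.9 ± 1.45 CPM and 25.7 ± 1.10 CPM with DMSO. Of 144 RiBi genes 0 were called in this test in either direction. DESeq2 also called 0, and at an unadjusted p under 0.05 in edgeR 33 were more negative and 1 more positive. With the adjusted p under 0.05 at any fold, 18 were more negative and 1 more positive, none of them by 2-fold. For UTP14 the effect differed by -0.43 ± 0.30 (log2). Among 138 ribosomal protein genes 52 had a more negative effect at 120 min and 0 a more positive one. Their summed level stayed near 57000 ± 10771 CPM and 57999 ± 2329 CPM with rapamycin at the 2 times and went from 137198 ± 15838 CPM to 264386 ± 12311 CPM with DMSO. For sulfate assimilation and methionine, 20 of 31 genes had a more positive effect at 120 min and none a more negative one.

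**Figure D4:**
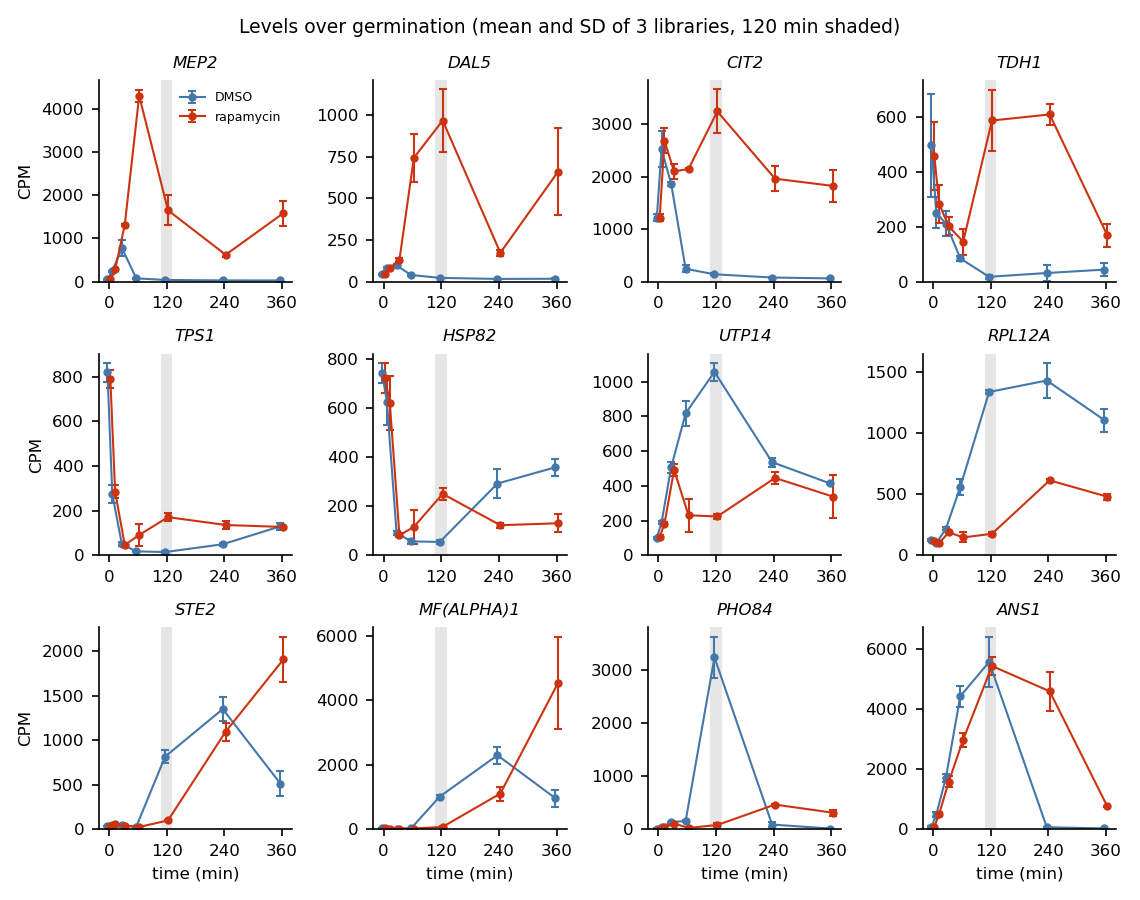
Level of 12 named genes (y axis, CPM scaled over all 45 libraries) against time after transfer (x axis, min) with DMSO (blue) and rapamycin (red), as means with SD of 3 libraries, 120 min shaded. STE2 is at 27.5 CPM with DMSO and 23.9 CPM with rapamycin at 60 min and at 814 and 97.1 CPM at 120 min, and PHO84 peaks with DMSO at 120 min.

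The effect at 240 min was compared with that at 120 min in the same way, over 12 libraries that again include those at 120 min. These were also treated as independent, though drawn from the same cultures over time. Of 5727 genes 32.8% were called, 16.2% with a more positive and 16.5% with a more negative effect at 240 min. RiBi genes had a more positive effect at 240 min in 138 of 144 cases and ribosomal protein genes in 122 of 138, with none more negative in either list. On the scale of all 45 libraries the RiBi genes summed to 54847 ± 2621 CPM with DMSO and to 54379 ± 3358 CPM with rapamycin at 240 min, against 105564 ± 5327 CPM and 33498 ± 1574 CPM at 120 min. The RiBi sums of the cultures thus lay within their spread of each other at 240 min, lower than at 120 min with DMSO and higher with rapamycin. Ribosomal protein genes did not meet, at 260258 ± 18707 CPM and 138648 ± 8590 CPM. The MATa genes summed in the rapamycin culture to 301 ± 17.2 CPM at 120 min and to 3785 ± 532 CPM at 240 min, against 2294 ± 326 CPM and 5304 ± 737 CPM with DMSO, and 6 of the 7 had a more positive effect at 240 min. The MATalpha genes did not follow them, as 1 of 4 had a more positive and 2 a more negative effect. They summed to 215 ± 29.4 CPM and 1807 ± 486 CPM with rapamycin, against 1441 ± 102 CPM and 8446 ± 1290 CPM with DMSO.

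PHO84 had the largest positive difference among genes at a mean of 10 CPM or more, 7.85 ± 0.50 on the log2 scale. It was at 3244 ± 385 CPM with DMSO at 120 min and at 85.5 ± 42.9 CPM at 240 min, while under rapamycin it went from 77.7 ± 44.8 CPM to 463 ± 20.3 CPM. The culture with the higher level was therefore not the same at the 2 times. SER3 (6.41 ± 0.23), ANS1 (6.25 ± 0.21) and PHO89 (6.16 ± 0.23) came next. ANS1, which encodes a putative wall protein, overlapped between the cultures at 120 min, at 4262, 5646 and 4830 CPM with DMSO and 4821, 4995 and 4517 CPM with rapamycin. At 240 min it was at 62.2 ± 10.0 CPM with DMSO and still at 4596 ± 655 CPM with rapamycin on the scale of all 45 libraries. MET6 (-5.08 ± 0.21) and CHA1 (-5.03 ± 0.23) had the most negative differences, followed by YIL082W-A (-4.80 ± 0.33) and YGR109W-B (-4.75 ± 0.30). The last pair are genes of Ty3 retrotransposons, and 42.3% and 42.7% of their stretches as long as a read recur elsewhere, so that their reads cannot be told apart with certainty. YIL082W-A was at 28.2 ± 6.23 CPM with DMSO at 120 min, at 814 ± 305 CPM with DMSO at 240 min and at 34.2 ± 7.35 CPM with rapamycin at 240 min. Proteasome genes had a more negative effect at 240 min in 32 of 35 cases and none a more positive one. In the DMSO culture their sum was 2738 ± 40.4 CPM at 120 min and 8188 ± 381 CPM at 240 min, and it was 4913 ± 253 CPM and 4350 ± 210 CPM with rapamycin. Of the NCR genes 15 had a more negative and 3 a more positive effect at 240 min. MEP2 did not reach the threshold (-0.91 ± 0.18), with 1650 ± 347 CPM and then 622 ± 41.6 CPM under rapamycin.

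**Figure D5:**
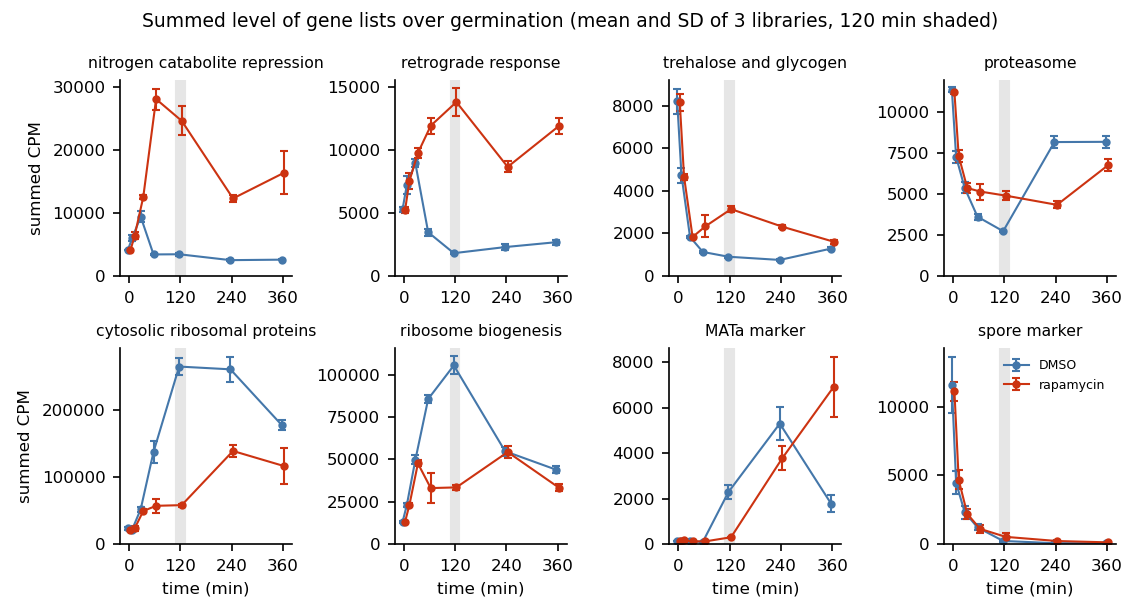
Summed level of 8 gene lists (y axis, CPM scaled over all 45 libraries) against time after transfer (x axis, min) with DMSO (blue) and rapamycin (red), as means with SD of 3 libraries, 120 min shaded. At 120 min the ribosomal protein sum is 264386 CPM with DMSO and 57999 CPM with rapamycin, and the RiBi sums meet at 240 min.

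Nothing in the labels says whether the replicates A, B and C were separate spore preparations, so the p-values measure the spread between these libraries only.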

How the data were processed

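RNA of each culture was sequenced from strand-specific poly-A libraries as single-end reads of 101 bases. The authors trimmed the reads with Trimmomatic (0.33, per the labels), aligned them with hisat2 to the SK1 genome and counted them per gene with HTSeq on the reverse strand, and deposited raw counts per gene. The labels name a human build, which was not used here. Of 6723 IDs, 6039 were matched to RefSeq R64, and the others held 0.199% of counts at 120 min. Coordinates and promoters are those of R64.

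Counts were tested with the quasi-likelihood test of edgeR (4.0.16, R 4.3.3) after TMM scaling, on genes above 1 CPM in at least 3 libraries, with Benjamini-Hochberg adjustment. Calls needed an adjusted p under 0.05 and a change of at least 2-fold. Errors are SE of log2 fold changes or SD of levels. In counts simulated from the libraries at 120 min, edgeR was judged by the adjusted p and the direction alone, without the 2-fold cut. It passed 97 of 100 genes given a 2-fold and 99 of 100 given a 4-fold change, and 5 unchanged genes, among 5636 genes. The simulation used a common dispersion and changed a far smaller share of genes than differed in the data. Its rates therefore do not describe the calls made here. Alternatives were other scaling, filters, DESeq2 (1.42.0), the exact test, a test against 2-fold, a replicate block, all 45 libraries in a fit and each library left out.

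The comparison and the gene lists were chosen with earlier results of these data known. Genes were named by a rule: the 10 largest rises and the 10 largest falls at a mean of 10 CPM or more, up to 4 called and 2 uncalled members of each list, the 4 largest changes of effect in each direction between times, and ACT1, GAP1, DIP5, MEP1, MEP2, MEP3 and 7 genes picked by the study. Exceptions are marked.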

Additional observations from a re-analysis of the deposited data

Results flagged for a closer look

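By the test of the difference itself, rapamycin had another effect at 120 min than at 60 min on 729 genes. Among those at a mean of 10 CPM or more the log2 difference was most positive for TDH1 (4.25), HEF3 (3.63), CRC1 (3.62) and PDC6 (3.46) and most negative for SRL1 (-5.20), FUS1 (-3.96), AGA2 (-3.92) and BAR1 (-3.79).

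Between 120 min and 240 min the effect differed for 1876 genes. Among those at a mean of 10 CPM or more it was, on the log2 scale, most positive for PHO84 (7.85), SER3 (6.41), ANS1 (6.25) and PHO89 (6.16) and most negative for MET6 (-5.08), CHA1 (-5.03), YIL082W-A (-4.80) and YGR109W-B (-4.75). Both tests use the libraries at 120 min. All 16 genes kept their call in every alternative run.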

How the results depend on the processing

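The number of genes called at 120 min was within 1.5 times of 2089 under every alternative but one, being 4593 with the adjusted p alone (2355 higher, 2238 lower). Scaling by totals alone gave 1900 higher and 472 lower, and changed the sign of 11 of 50 list medians. For the effect at 120 min against 60 min the adjusted p alone gave 2324 genes (1290 more positive, 1034 more negative), and totals alone gave 148 more negative. At 240 min against 120 min the adjusted p alone gave 4101 (2158 and 1943). Leaving out each library in turn gave 2031 to 2157 genes at 120 min (1154 to 1227 higher, 855 to 930 lower), 639 to 866 for 120 min against 60 min (440 to 623 and 194 to 281) and 1826 to 1940 for 240 min against 120 min (862 to 948 and 913 to 1000). Of 146 genes named, 11 changed sign under totals alone, none of them called: CDC19 (0.03), STE5 (0.24), SFP1 (0.14), RPL15B (0.33), ACT1 (0.13), FBA1 (0.26), GCN4 (0.31), URA8 (0.34), ADH2 (0.43), CYS4 (0.44) and ANS1 (0.47). CLN3 and STE12 lost their call under totals alone, and DMC1 and HOP1 in a test against a 2-fold change. Under totals alone 5 genes gained a call: CAN1 (1.24), TPS3 (1.48), TSA1 (1.09), RPN4 (1.37) and RPT1 (1.42). A check of deviations did not settle whether the replicate letters pair the libraries. Deviations of same-lettered libraries correlated at 0.26 (A), 0.421 (B) and 0.0967 (C), and those of different letters at -0.37 to 0.17. Library C with rapamycin correlated best with library A with DMSO (0.17). The deviations were taken from the mean of each small group, so these values are not independent. With the letters as a replicate block 2097, 771 and 1884 genes were called in the 3 comparisons. Depth limited genes with few counts, which were not tested.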
